A study of Bos taurus with 6 samples.

Results

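The miRNAs of 5 hairpins made in liver, miR-122, miR-192, miR-194, miR-483 and miR-885, were followed in the small RNA of fetal bovine serum (FBS). Any miRNA name of the deposited tables with one of these numbers, on either arm, was taken. The rule found 6 of 502 names when reads were mapped to the human genome, namely hsa-miR-122-5p, hsa-miR-192-5p, hsa-miR-194-5p, hsa-miR-483-3p, hsa-miR-483-5p and hsa-miR-885-3p. It found 4 of 395 names when the same reads were mapped to the mouse genome, namely miR-122-5p, miR-192-5p, miR-194-5p and miR-483-3p. The other arms of these hairpins were not analysed here.

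FBS is the serum of unborn calves that feeds cultured cells, and the study asked which of its RNA could pass for human or mouse RNA. The 3 pellets hold what sedimented from 40 mL of FBS in 24 h of ultracentrifugation (UC) at 100000 g, a fraction with extracellular vesicles (EVs) and other heavy particles. The 3 supernatants hold what stayed in solution, such as light ribonucleoprotein complexes, concentrated from 20 mL on 3 kDa filters. All 6 libraries came from 60 ng of RNA treated with T4 polynucleotide kinase, with inserts of 15 to 65 nt. In serum, release by more cells and release of more RNA per cell cannot be told apart, and a read is called one of liver only from where its miRNA is known to be made. The study speaks of batches of FBS in one place and of aliquots in another, so the p-values here speak of the scatter among these libraries alone, and that scatter may be technical.

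miR-122 is the most abundant miRNA of hepatocytes, where it acts in lipid and cholesterol metabolism, and in humans it is a host factor of hepatitis C virus. Its level in serum is used as a sign of liver injury. miR-192 and miR-194 are made from shared transcripts under the control of hepatocyte nuclear factors, not only in liver but also in the epithelium of gut and kidney. miR-483 is carried by an intron of IGF2, the imprinted growth factor gene of fetal life, and miR-885 by the gene of the calcium pump ATP2B2. The cattle annotation (assembly ARS-UCD2.0) has the same layout. There MIR192 and MIR194-2 are neighbours, as are MIR215 and MIR194-1, while MIR483 lies within the span of IGF2, MIR885 within that of ATP2B2, and MIR122 within no other gene.

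The deposited unit is RPM, a count of reads scaled to the total mapped reads of its library. The mapped reads themselves were estimated from the RPM that 1 read is worth, and ran from 867426 to 6660802 reads in the pellets and from 3081111 to 5373233 reads in the supernatants of the human mapping. Pellet 3 was the shallowest library, with 1 read worth 1.15 RPM, and pellet 1 the deepest, with 1 read worth 0.150 RPM. A few RPM in pellet 3 are therefore a few reads. Whole counts could not be recovered, and the estimated reads below serve only to show how much stands behind a value. All libraries began with the same mass of RNA, so RPM compare shares of reads between fractions, not amounts in FBS. The study reported that UC left most of the RNA in the supernatant. A higher RPM in pellets therefore does not show that more of a miRNA sedimented than stayed in solution. The amounts per volume of FBS were not analysed here.

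miR-122-5p dwarfed the other liver miRNAs in every library. It stood at 92838, 51817 and 49607 RPM in pellets 1, 2 and 3 of the human mapping, against 40793, 33514 and 30978 RPM in supernatants 1, 2 and 3. All 3 pellets were above all 3 supernatants, and pellet 1 stood well above the other pellets. These values rest on 43030 (pellet 3) to 618378 estimated reads (pellet 1), so counting error is small beside the spread between libraries. The level averaged 64754 ± 24347 RPM in pellets, against 35095 ± 5095 RPM in supernatants (SD, n = 3 each), or 50712 RPM in the pellets without pellet 1. The log2 fold change was 0.83 on the log2(RPM + 1) scale used throughout (95% interval 0.13 to 1.53), and its adjusted p of 0.0510 from limma missed the threshold of 0.05. It passed without pellet 3 (0.99, adjusted p = 0.0186 from limma), with a pseudocount of 0.1 RPM (adjusted p = 0.0478) and among names with 10 RPM in 3 libraries (adjusted p = 0.0443). Without supernatant 1, 2 or 3 it missed the threshold (adjusted p = 0.0904, 0.151 and 0.151 from limma). The same held without pellet 1 or 2 (adjusted p = 0.0649 and 0.0664) and with a pseudocount of 10 RPM (adjusted p = 0.0685). Nor did it pass without a filter on low values (adjusted p = 0.318) or with a variance not following the level (adjusted p = 0.200).

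**Figure D1:**
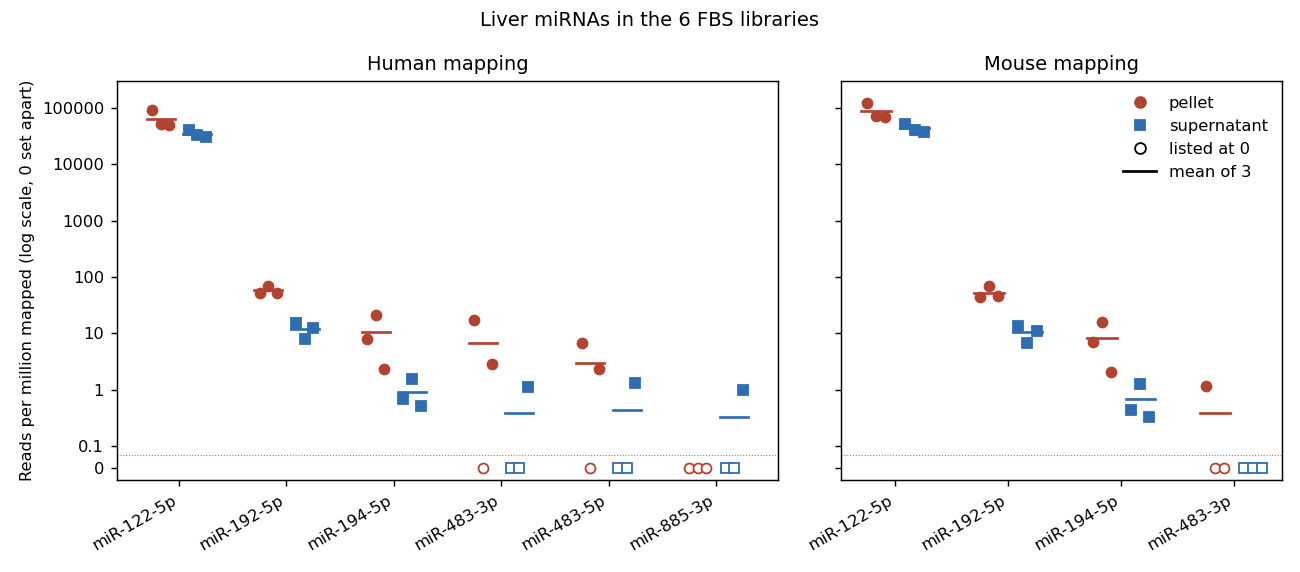
RPM of each liver miRNA in the 3 pellets (circles) and the 3 supernatants (squares), on a log axis with values of 0 set apart at the bottom (open symbols), in the human (left) and the mouse mapping (right), with lines at the means of 3. miR-122-5p lay at 30978 to 92838 RPM in the human mapping, miR-192-5p at 7.96 to 67.7 RPM in the human mapping, and the miR-483 arms were at 0 in 3 of 6 libraries of the human mapping.

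miR-192-5p was next in order, about 3 orders of magnitude lower. It stood at 52.7, 67.7 and 52.1 RPM in pellets 1, 2 and 3, against 15.1, 7.96 and 12.6 RPM in supernatants 1, 2 and 3. The pellets were close to each other and all above the supernatants. The mean of 57.5 ± 8.86 RPM in the pellets was 4.84 times the mean of 11.9 ± 3.64 RPM of the supernatants (n = 3 each, SD). miR-192-5p thus rose per mapped read, its log2 fold change being 2.21 with a standard error of 0.50 (limma, adjusted p = 0.0162). The call was lost when supernatant 1 or 2 was left out (limma, adjusted p = 0.0609 and 0.0965), as was that of every other tested name (0 passed, with 67 and 61 names at an unadjusted p under 0.05). By estimated reads it was 351, 106 and 45.2 reads in pellets 1, 2 and 3 and 81.3, 30.5 and 38.7 reads in supernatants 1, 2 and 3.

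miR-194-5p, which has genes beside both MIR192 and MIR215, was rarer and far less even. It stood at 7.99, 21.3 and 2.31 RPM in pellets 1, 2 and 3, against 0.670, 1.57 and 0.519 RPM in supernatants 1, 2 and 3. No pellet overlapped a supernatant, but pellet 3 came near to supernatant 2, and its value is 2 estimated reads. The supernatant values are 1.6 to 6 estimated reads. The pellets averaged 10.53 ± 9.74 RPM and the supernatants 0.919 ± 0.566 RPM (n = 3 each, SD), with a pellet mean of 5.15 RPM without pellet 2. The log2 fold change of 2.22 (standard error 0.81) was as large as that of miR-192-5p, yet with the wider spread it missed the threshold (adjusted p = 0.0504 from limma). It passed without pellet 3 (2.92, adjusted p = 0.00926), with a pseudocount of 0.1 RPM (3.01, adjusted p = 0.0492) and without the trend of the variance (adjusted p = 0.0443). Without supernatant 1, 2 or 3 it did not pass (adjusted p = 0.130, 0.110 and 0.121 from limma). The same held without pellet 1 or 2 (adjusted p = 0.0728 and 0.0870). Nor did it pass without a filter on low values (adjusted p = 0.222) or with a pseudocount of 10 RPM (adjusted p = 0.0900).

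The arms of miR-483 came up in the same libraries. miR-483-3p stood at 17.3, 0 and 2.88 RPM in pellets 1, 2 and 3, against 0, 0 and 1.14 RPM in supernatants 1, 2 and 3. miR-483-5p stood at 6.76, 0 and 2.31 RPM in pellets 1, 2 and 3, against 0, 0 and 1.30 RPM in supernatants 1, 2 and 3. Pellets 1 and 3 and supernatant 3 thus had both arms, while pellet 2 and supernatants 1 and 2 had neither. Only pellet 1 had more than a few estimated reads, 115 of the 3p and 45 of the 5p arm. A listed 0 allows up to 1.91 RPM in pellet 2, up to 0.558 RPM in supernatant 1 and up to 0.783 RPM in supernatant 2, the worth of 3 reads, for counting error only. The fractions overlapped for both arms, and neither passed by limma (log2 fold changes 1.68 and 1.16, adjusted p = 0.182 and 0.241). Without pellet 1 the pellet means of 6.72 and 3.02 RPM became 1.44 and 1.15 RPM for the 3p and the 5p arm, and without pellet 2 miR-483-3p passed (2.71, adjusted p = 0.0349).

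miR-885-3p was seen in 1 library only. It stood at 0 RPM in all 3 pellets, against 0, 0 and 0.974 RPM in supernatants 1, 2 and 3. The last value is 3 estimated reads, and 3 reads are worth 3.46 RPM in pellet 3, so a difference between fractions was not detectable at this depth. The name was below the filter for testing, which asked for 1 RPM or more in 3 or more libraries and which the other 5 names passed.

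The levels thus kept a clear order at the top and none at the bottom. In each library miR-122-5p was the first of all miRNA names by RPM. miR-192-5p followed between place 32 (pellet 3) and place 72 (pellet 1), and did not overlap with any rarer liver miRNA in its fraction. miR-194-5p, at 2.31 to 21.3 RPM in the pellets, overlapped there with miR-483-3p at 0 to 17.3 RPM and with miR-483-5p at 0 to 6.76 RPM. In the supernatants, too, the ranges of miR-194-5p, both miR-483 arms and miR-885-3p overlapped, at 0 to 1.57 RPM.

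Set against all miRNAs, the liver miRNAs were not unusual in direction. Of the 5 names that passed the filter, 1 passed the test as higher in pellets, none as lower, and 4 passed in neither direction, while 47.7% of the 153 tested names were higher and 0% lower by limma (0 lower also at an unadjusted p under 0.05). In 3 of the 5 the fractions did not overlap, with the pellets higher, as in 66.7% of the tested names. The median log2 fold change of the 5 was 1.68, against 2.05 over all tested names, a description with no test. miR-192-5p and miR-194-5p lay close to that median. miR-122-5p lay below it, and 127 of the 153 names had a larger log2 fold change.

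**Figure D2:**
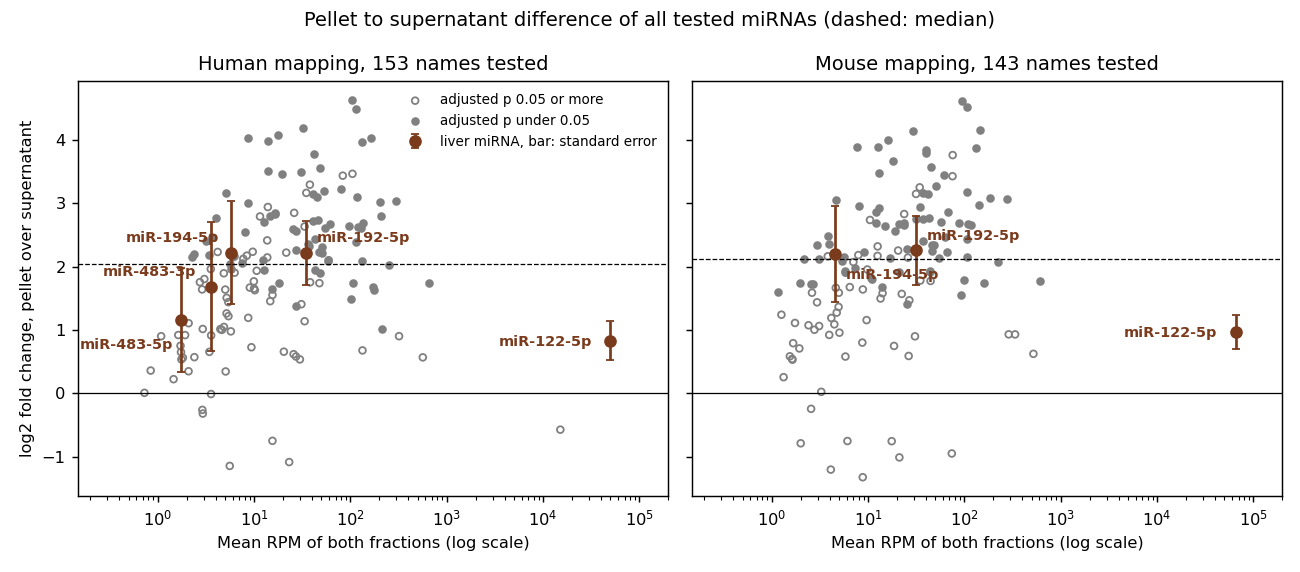
Log2 fold change, pellet over supernatant, against the mean RPM of both fractions (log axis) for each tested miRNA name, in the human (left) and mouse mapping (right), with filled grey points for an adjusted p under 0.05 from limma and standard errors for the liver miRNAs. miR-122-5p stands alone at the right, at 0.83 and 0.98, below the medians of 2.05 and 2.12 (dashed), while miR-192-5p and miR-194-5p lie near them.

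In the mouse mapping the same order and the same separation were found. miR-122-5p stood at 121369, 71083 and 68890 RPM in pellets 1, 2 and 3, against 51652, 39985 and 37801 RPM in supernatants 1, 2 and 3. miR-192-5p stood at 44.5, 68.7 and 45.1 RPM in pellets 1, 2 and 3, against 13.4, 6.83 and 10.9 RPM in supernatants 1, 2 and 3. miR-194-5p stood at 6.90, 15.9 and 2.10 RPM in pellets 1, 2 and 3, against 0.430, 1.26 and 0.333 RPM in supernatants 1, 2 and 3. Pellets and supernatants did not overlap for any of the 3, as in 72% of the tested names with the pellets higher. All 3 rose in the pellets by limma, where 55.9% of the 143 tested names were higher and 0% lower. The log2 fold changes were 0.98 for miR-122-5p (standard error 0.27, adjusted p = 0.0238), 2.26 for miR-192-5p (standard error 0.54, adjusted p = 0.0168) and 2.2 for miR-194-5p (standard error 0.75, adjusted p = 0.0413). The change of miR-122-5p was again small beside the median of 2.12. That it passed here and missed the threshold in the human mapping does not show a difference between the mappings, which was not tested.

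These calls in the mouse mapping depended on which library was left out, as did those of the whole mapping. Without supernatant 1 or 2, 0 tested names passed by limma, with 66 and 60 names at an unadjusted p under 0.05. Without supernatant 3, 30 names passed as higher, against 80 with all libraries. Without pellet 1, 2 or 3, 47, 53 and 87 names passed as higher. With 1 library left out, the log2 fold changes were 0.71 to 1.12 for miR-122-5p, 2.01 to 2.45 for miR-192-5p and 1.60 to 2.83 for miR-194-5p. Without supernatant 1, 2 or 3, miR-122-5p did not pass (adjusted p = 0.0702, 0.0912 and 0.0768 from limma), nor did miR-192-5p (adjusted p = 0.0702, 0.0912 and 0.0505) or miR-194-5p (adjusted p = 0.103, 0.0912 and 0.10). miR-194-5p also did not pass without pellet 1 or 2 (adjusted p = 0.0667 and 0.0603), and its pellet mean of 8.30 RPM became 4.50 RPM without pellet 2. miR-122-5p did not pass when the variance was not allowed to depend on the level (adjusted p = 0.139 from limma). Without the filter on low values miR-122-5p and miR-194-5p did not pass (adjusted p = 0.230 and 0.188), nor did miR-194-5p with a pseudocount of 10 RPM (adjusted p = 0.0779). miR-483-3p stood at 1.17 RPM in pellet 1 and at 0 RPM in the other 5 libraries and was not tested.

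What counts as a rise of miR-122-5p turned on the denominator. Per mapped read its log2 fold change was 0.83 in the human mapping, per miRNA read 0.19 (adjusted p = 0.226 from limma), and per read of the miRNAs other than miR-122-5p and miR-1246 it was -1.33 (standard error 0.25, adjusted p = 0.0219), so that it was lower in the pellets. With median-of-ratios factors, which take most miRNAs as unchanged, it was -1.21 (adjusted p = 0.0438). The pool of the other miRNAs behind this turn was 18498, 12270 and 6765 RPM in pellets 1, 2 and 3, against 2597, 2348 and 2785 RPM in supernatants 1, 2 and 3. miR-192-5p kept a positive value under each scaling but passed only per mapped read, with 1.61 per miRNA read (adjusted p = 0.0548) and 0.14 per read of the other miRNAs (adjusted p = 0.871). miR-194-5p stood at 1.81 and 0.77 under these scalings and did not pass. In the mouse mapping the values of miR-122-5p were 0.98, -0.094 and -1.18 on the log2 scale per mapped read, per miRNA read and per read of the other miRNAs, the last at an adjusted p of 0.0610. Each scaling also moved the median of all tested names. In the human mapping it was 2.05 per mapped read, 1.49 per miRNA read and 0.28 per read of the other miRNAs. There miR-122-5p lay below that median each time. miR-192-5p lay above it per mapped read and per miRNA read, and below it per read of the other miRNAs.

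**Figure D3:**
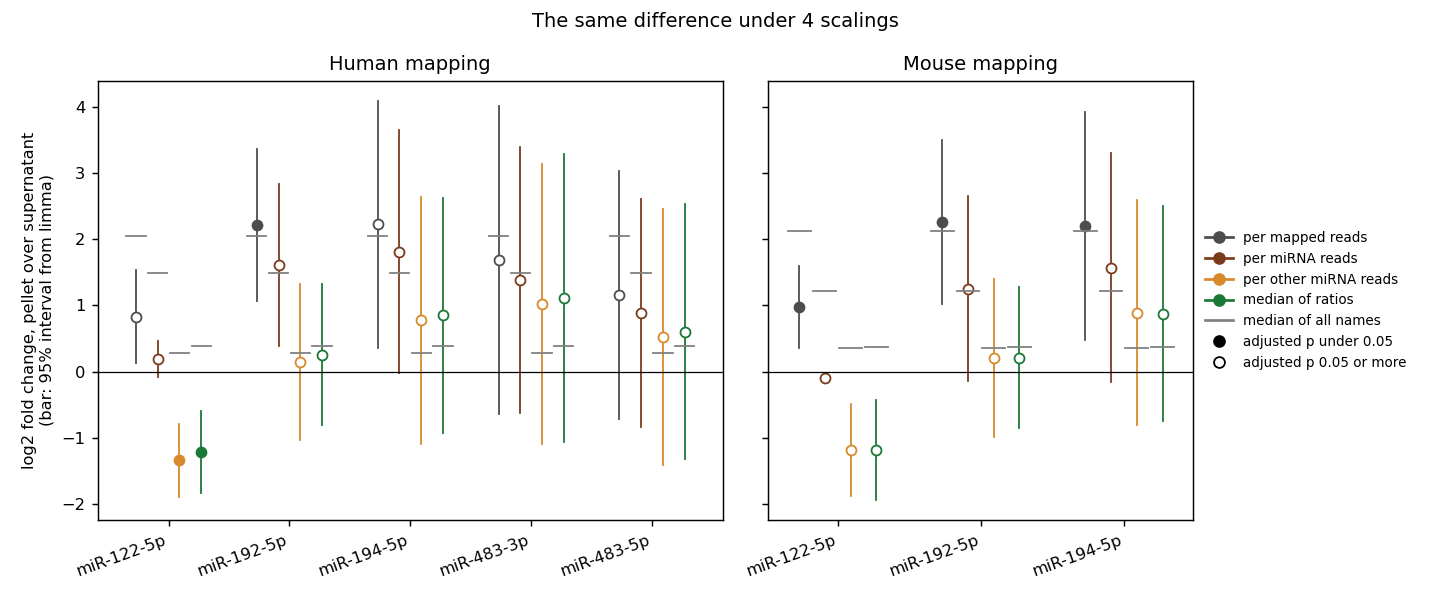
Log2 fold change, pellet over supernatant, of the tested liver miRNAs with 95% intervals from limma under 4 scalings, in the human (left) and mouse mapping (right), with filled symbols for an adjusted p under 0.05 and grey ticks for the median of all tested names. miR-122-5p goes to -1.33 per read of the other miRNAs in the human mapping, where miR-192-5p is at 0.14 (95% interval -1.03 to 1.32).

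The share of miR-122-5p in the miRNA reads shows the same turn without any model. In the human mapping it was 72.0%, 67.0% and 78.3% in pellets 1, 2 and 3, against 69.8%, 60.8% and 59.4% in supernatants 1, 2 and 3. The fractions overlapped, with means of 72.4% ± 5.69 for the pellets and 63.3% ± 5.61 for the supernatants (n = 3 each, SD; exact permutation test, two-sided, p = 0.20). Most of the rest in the supernatants was held by miR-1246, a name whose sequence resembles a stretch of the spliceosomal U2 RNA. With it left out of the total, miR-122-5p held 83.4%, 80.9% and 88.0% in pellets 1, 2 and 3, against 94.0%, 93.5% and 91.8% in supernatants 1, 2 and 3. All pellets were then below all supernatants (difference of means -8.99 percentage points, exact permutation test, two-sided, p = 0.10, the smallest p that 3 against 3 libraries can give). In the mouse mapping, which listed no miR-1246 in the table used here, the share was 88.4%, 86.2% and 92.2% in pellets 1, 2 and 3, against 95.6%, 95.1% and 93.9% in supernatants 1, 2 and 3 (difference of means -5.95 percentage points, exact permutation test, two-sided, p = 0.10). Per mapped read, in contrast, miR-122-5p took 8.71% in the pellets and 4.31% in the supernatants of the mouse mapping.

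**Figure D4:**
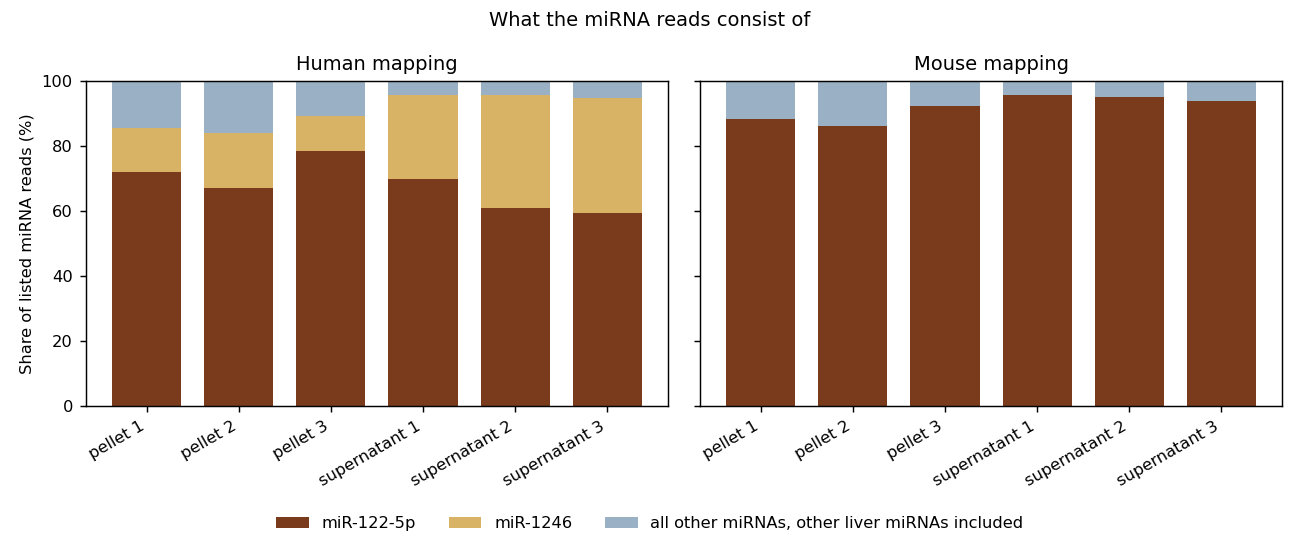
Share of the listed miRNA reads (%, stacked to 100) held by miR-122-5p, miR-1246 and all other miRNAs in each library, in the human (left) and mouse mapping (right). miR-122-5p holds 59.4% to 78.3% in the human mapping, where miR-1246 takes a larger part of the supernatants than of the pellets, and 86.2% to 95.6% in the mouse mapping.

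The other 5 liver miRNAs of the human mapping together were a trace of the miRNA reads. They held 0.0657%, 0.115% and 0.0941% of them in pellets 1, 2 and 3, against 0.0270%, 0.0173% and 0.0317% in supernatants 1, 2 and 3, without overlap. Within the liver miRNAs, miR-122-5p made up 99.8% to 99.9% of the reads in the pellets and 99.95% to 99.97% in the supernatants. Counted only among the miRNAs other than miR-122-5p and miR-1246, the other liver miRNAs held 0.688% ± 0.214 in pellets, against 0.536% ± 0.113 in supernatants (n = 3 each, SD), with overlap.

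Ratios of RPM within a library do not depend on its total, whereas those with a pseudocount do. Differences are therefore given both without one (chosen after seeing the data) and with 1 RPM added to both names. miR-122-5p exceeded miR-192-5p 1762, 765 and 952 times in pellets 1, 2 and 3, against 2695, 4209 and 2463 times in supernatants 1, 2 and 3. The ratio was lower in every pellet than in any supernatant, by 2.79 times as geometric means (log2 difference -1.48, exact permutation test, two-sided, p = 0.10, adjusted p = 0.30 over 3 ratios). With 1 RPM added the log2 difference was -1.38 (exact permutation test, two-sided, p = 0.10, adjusted p = 0.40 over 4 ratios). miR-122-5p exceeded miR-194-5p 11624, 2434 and 21515 times in pellets 1, 2 and 3, against 60887, 21397 and 59655 times in supernatants 1, 2 and 3. Here pellet 3 overlapped with supernatant 2 (log2 difference -2.33, exact permutation test, two-sided, p = 0.20, adjusted p = 0.30). The log2 difference was -1.39 with 1 RPM added (exact permutation test, two-sided, p = 0.20, adjusted p = 0.40) and 0.026 with 10 RPM added, at miR-194-5p levels of 0.519 to 1.57 RPM in the supernatants.

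Between miR-192-5p and miR-194-5p, which has genes beside both MIR192 and MIR215, the ratio ranged widely within each fraction. miR-192-5p exceeded miR-194-5p 6.60, 3.18 and 22.6 times in pellets 1, 2 and 3, against 22.6, 5.08 and 24.2 times in supernatants 1, 2 and 3. Pellet 2 and supernatant 2 had the lowest ratio of their fraction. The fractions overlapped, and the log2 difference of -0.85 was smaller than the SDs of 1.43 among pellets and 1.27 among supernatants (exact permutation test, two-sided, p = 0.50, adjusted p = 0.50). With 1 RPM added the log2 difference was -0.0092 (exact permutation test, two-sided, p = 1, adjusted p = 1), and miR-194-5p had only 1.6 to 6 estimated reads in pellet 3 and the supernatants. The ratio of the 5p to the 3p arm of miR-483 was 0.391 in pellet 1, 0.800 in pellet 3 and 1.14 in supernatant 3. The other 3 libraries had neither arm and so no ratio, and the fractions were not compared without a pseudocount. With 1 RPM added these libraries enter at a log2 ratio of 0. The log2 difference was then -0.52 (exact permutation test, two-sided, p = 0.30, adjusted p = 0.40), which says little about the arms.

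miR-122-5p received fewer reads in the human than in the mouse mapping. By estimated reads, miR-122-5p had 618378 in the human and 890824 in the mouse mapping of pellet 1, and 95448 in the human and 129774 in the mouse mapping of supernatant 3. The human to mouse ratio of its reads was 0.694, 0.698 and 0.654 in pellets 1, 2 and 3, against 0.710, 0.743 and 0.735 in supernatants 1, 2 and 3. The ratio was below 1 in all 6 libraries, and lower in each pellet than in any supernatant. For miR-192-5p it was 0.944 to 1.07 and for miR-194-5p 1 to 1.40, from few reads. miR-483-3p went the other way, with 115 estimated reads in the human and 8.58 in the mouse mapping of pellet 1, a ratio of 13.4. These ratios use the estimated depth of each mapping, and the ratios of miR-122-5p to miR-192-5p within a library, which do not, were likewise lower in the human mapping (1762 in pellet 1) than in the mouse mapping (2725 in pellet 1).

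Most other miRNAs had nearly the same number of reads in both mappings. Over the names with at least 100 estimated reads in a library of the human mapping, 9 (pellet 3) to 90 names (pellet 1), the median ratio was close to 1. In pellet 1, 78 of the 90 names were within 10% of 1, and in supernatant 1, 15 of 21. miR-122-5p had the lowest ratio of all these names in 4 of 6 libraries, and only let-7c-5p, named after its value was seen, was lower in pellets 1 and 2. In those 4 libraries let-7c-5p was below the minimum, so this rank depends on the minimum. Its supernatant mean was 12.4 RPM in the human and 17.9 RPM in the mouse mapping. The human to mouse ratio of all mapped reads was 0.887 to 0.957. The minimum of 100 reads was set after the values were seen, the ratios are a description with no test, and the cause was not tested.

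**Figure D5:**
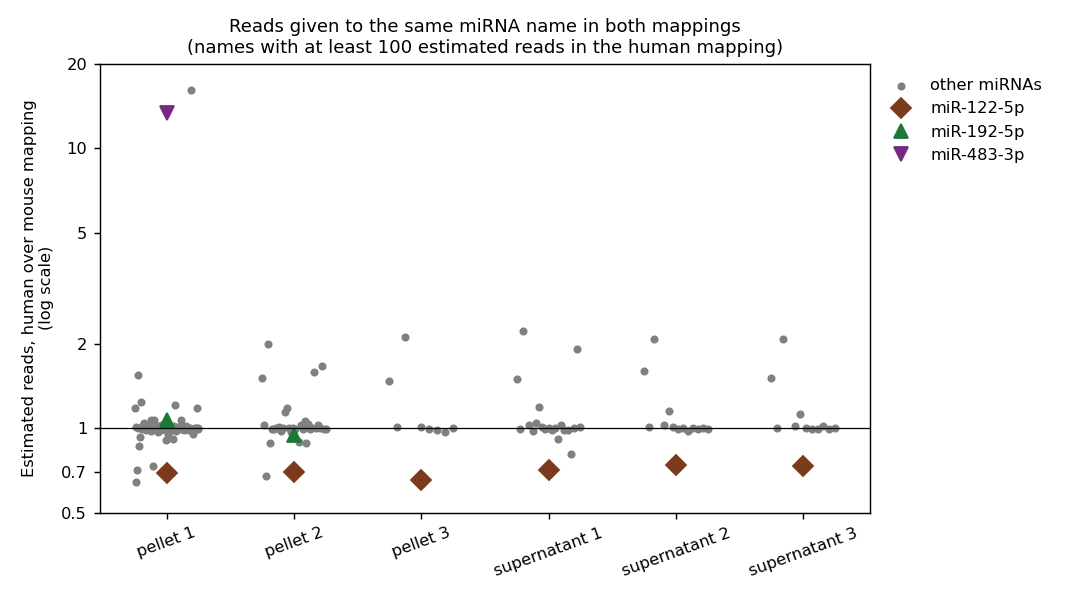
Estimated reads of the same miRNA name in the human over the mouse mapping (log axis) in each library, for names with at least 100 estimated reads in the human mapping. miR-122-5p (diamonds) lies at 0.654 to 0.743 while most names lie on the line at 1, and miR-483-3p reached the minimum only in pellet 1, at 13.4.

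Other miRNAs that are abundant in liver, or tied to these by seed or transcript, were mostly higher in the pellets per mapped read. Of 18 on the list 17 were named in the human mapping and 14 were tested, of which 12 passed as higher in pellets, where 47.7% of all tested names did, none as lower, and 2 in neither direction, miR-100-5p (log2 fold change 1.74, adjusted p = 0.0812 from limma) and miR-126-3p (1.26, adjusted p = 0.134). Their median log2 fold change was 2.35, against 2.05 over all tested names. Calls were frequent among abundant names in general, with 61 of 75 names higher by limma when 10 RPM in 3 libraries were required. Whether the list differs from names of like abundance was not tested. Scaled to miRNA reads 7 of the 14 passed as higher. Per read of the other miRNAs 0 of the 14 passed by limma, 11 had positive and 3 negative values, and the median was 0.40, against 0.28 over all tested names. Most of these miRNAs are made in many tissues besides liver.

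miR-148a-3p, which acts on lipoprotein receptors in liver, was the most abundant of them. It stood at 949.5, 1723 and 462 RPM in pellets 1, 2 and 3, against 328, 240.2 and 259 RPM in supernatants 1, 2 and 3 (log2 fold change 1.73, adjusted p = 0.0259 from limma), and turned to -0.43 per read of the other miRNAs. miR-21-5p, abundant in many tissues, averaged 209 ± 116 RPM in pellets, against 23.1 ± 10.7 RPM in supernatants (log2 fold change 3.09, adjusted p = 0.00913, n = 3 each). miR-26a-5p averaged 224 ± 295 RPM in pellets, against 6.28 ± 6.65 RPM in supernatants (4.48, adjusted p = 0.0180), most of it from pellet 1 at 564 RPM. miR-99a-5p averaged 202 ± 143 RPM in pellets, against 27.1 ± 5.90 RPM in supernatants (2.40, adjusted p = 0.0390). Without supernatant 1 or 2 none of these 4 passed. The relative of miR-192 with the same seed, miR-215-5p, stood at 5.48, 3.98 and 0 RPM in pellets 1, 2 and 3, against 0.155, 0.131 and 0.0811 RPM in supernatants 1, 2 and 3, below the filter.

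Over the 6 libraries, the names whose levels followed miR-122-5p most closely were not the other liver miRNAs. By Pearson correlation of log2(RPM + 1) in the human mapping they were miR-411-3p (r = 0.979), miR-409-3p (0.974), miR-29a-3p (0.972), miR-199a-5p (0.948) and miR-543 (0.942). Of these, miR-411-3p was at 21.7 RPM in pellet 1 and at 0 to 1.91 RPM in the other libraries, which is few reads. The liver miRNAs were at 0.774 for miR-192-5p, 0.665 for miR-194-5p, 0.783 for miR-483-3p and 0.693 for miR-483-5p, around the median of 0.741 over the tested names. miR-409-3p, for example, stood at 532, 73.9 and 52.3 RPM in pellets 1, 2 and 3, against 22.5, 15.7 and 21.7 RPM in supernatants 1, 2 and 3. Like miR-122-5p it was highest in pellet 1, whereas miR-192-5p and miR-194-5p were highest in pellet 2. In the mouse mapping miR-378a-3p, on the list of other miRNAs abundant in liver, was among the 5 closest (r = 0.956). There miR-192-5p was at 0.813 and miR-194-5p at 0.722, around the median of 0.770. The 6 points share their libraries and totals, and these values are a description with no test.

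In the human mapping, markers of other sources had higher sums in the pellets as well, except those of gut and kidney epithelium, where the ranges overlapped. Of the red blood cell list 4 of 6 names were found, with sums of 167 to 512 RPM in pellets, against 11.9 to 20.9 RPM in supernatants. miR-451a, its defining member, was at 4.80 to 37.0 RPM in pellets, against 1.31 to 2.98 RPM in supernatants. The study stated that miR-451 went unsequenced in its libraries, yet found miR-451a abundant in medium with FBS by quantitative PCR. These RPM may therefore not give its level in FBS. Of the platelet and leukocyte list 4 of 6 were found, at 31.8 to 241 RPM in pellets, against 12.8 to 18.8 RPM in supernatants, nearly all from miR-142-5p, with miR-223-3p at 0 in 5 libraries. The muscle list, found as 8 names, stood at 150 to 179 RPM in pellets, against 50.1 to 66.6 RPM in supernatants. The brain list, found as 3 names without miR-124, stood at 66.9 to 326 RPM in pellets, against 15.0 to 25.2 RPM in supernatants. These sums hide names that did not follow. By limma, 2 of 3 tested red blood cell names and 0 of 1 tested platelet and leukocyte names passed as higher. So did 1 of 6 tested muscle names and 1 of 3 tested brain names, against 47.7% of all tested names. The median log2 fold change of the muscle names was 0.58, against 2.05 over all tested names. Markers of gut and kidney epithelium, which also makes miR-192 and miR-194, summed to 0 to 7.13 RPM in pellets, against 0.0811 to 0.900 RPM in supernatants, with 4 names found for its 6 entries. Pellet 2, highest in miR-192-5p and miR-194-5p, also had the highest sums of the red blood cell, the leukocyte and the muscle lists, but not for every name. Of the muscle names miR-1-3p (149 RPM), miR-499a-5p and miR-133b were highest in pellet 2. In contrast, miR-206, miR-208a-3p and miR-208b-3p were at their lowest there (16.0, 0 and 5.10 RPM), and the miR-133a arms were highest in other pellets. Of the red blood cell names miR-16-2-3p was highest in pellet 1 and the others in pellet 2. Pellet 1 was highest in the brain and the epithelium lists. The part of these sources in the liver miRNA results was not tested.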

How the data were processed

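Small RNA libraries of 3 pellets and 3 supernatants from UC of FBS were compared. The authors mapped the reads to hg19 with the exceRpt small RNA-seq pipeline and deposited RPM values, normalized to the total mapped reads of each library. For the mouse genome the submitters' processing notes name mm10, and the pipeline was not stated in the sources used. RPM are shares, so RNA classes that take more reads lower the rest. The members and lists were chosen with earlier results of these data known.

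For limma 3.58.1 (R 4.3.3), names had to reach 1 RPM in 3 or more libraries. The model was fitted to log2(RPM + 1) with fraction as its only term and a variance prior that follows the level, two-sided, with Benjamini-Hochberg adjustment over all tested names of a table at 0.05. Log2 fold changes understate the change of low miRNAs. Shares, and ratios with 1 RPM and without a pseudocount, were tested by exact permutation over the 20 relabellings (Python 3.11.15, numpy 2.4.6), which cannot go below p = 0.10, and figures were drawn with matplotlib 3.10.9. The lowest RPM shared by at least 6 names of a library was taken as 1 read. Within 0.02 reads, 35.6% (pellet 2) to 59.6% (pellet 3) of the values above 0 were whole in the human mapping, so no count model was fitted. Named were all members, the 4 of highest mean RPM on the list of other liver miRNAs (values given for the human mapping), the 5 most like miR-122-5p, and others where said. The limma fit was tested on simulated data with as many names raised as lowered, unlike the main calls here, which were all higher in pellets. Cattle gene names came from RefSeq.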

Additional observations from a re-analysis of the deposited data

How the results depend on the processing

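The direction of miR-122-5p followed the scaling, and the counts of miRNAs past the threshold followed both scaling and filter. Against 73 miRNAs higher in the pellets of the human mapping, limma called 38 with a pseudocount of 10 RPM, 11 without a filter on low values, 37 higher and 1 lower scaled to miRNA reads, and 1 higher and 5 lower scaled either to miRNA reads without miR-122-5p and miR-1246 or by median of ratios. Against 80 in the mouse mapping the counts were 34, 10, 9 higher and 1 lower, and 1 higher and 7 lower. The calls that were higher made up 97.4% and 90% of all calls scaled to miRNA reads, and 16.7% and 12.5% under the last scalings, in the human and the mouse mapping. Leaving out 1 library at a time gave 0 to 93 higher and 0 to 1 lower in the human mapping, and 0 to 87 higher and 0 to 1 lower in the mouse mapping, with 0 when supernatant 1 or 2 was left out.

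Under the scaling to miRNA reads without miR-122-5p and miR-1246 and under median of ratios, the log2 fold change was -1.33 and -1.21 for miR-122-5p and -0.43 and -0.31 for miR-148a-3p in the human mapping, and -1.18 under both for miR-122-5p and -0.38 and -0.37 for miR-148a-3p in the mouse mapping, where miR-122-5p scaled to miRNA reads was at -0.094. The difference in the share of miR-122-5p was -8.99 percentage points without miR-1246 in the human mapping and 4.4 per mapped read in the mouse mapping. With a pseudocount of 10 RPM the log2 difference of the ratio of miR-122-5p to miR-194-5p was 0.026 and that of miR-192-5p to miR-194-5p 0.83. The log2 difference of the ratio of miR-192-5p to miR-194-5p, with 1 RPM added, was 0.061 in the mouse mapping, and -0.64 to 0.55 in the human mapping with 1 library left out. Without a pseudocount, an alternative chosen after seeing the data, it was -0.85 in the human mapping.

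Whether same-numbered libraries shared FBS is not stated in the labels. Deviations of same-numbered pellets and supernatants correlated at -0.19, 0.27 and 0.26 in the human mapping, and not every library correlated best with its own number. With a replicate block limma called 78 and 73 miRNAs higher in the human and mouse mapping, and in the human mapping miR-122-5p (adjusted p = 0.0178) and miR-194-5p (adjusted p = 0.0447) passed. Depth limits miR-194-5p, miR-483 and miR-885 to a few reads in most libraries. The mouse share already holds no miR-1246, so leaving it out changes nothing there. The ratio to miR-122-3p was not run.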
